A study of Mus musculus with 12 samples.

Results

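The proliferation and mitosis genes described here are 48 genes listed by name for their place in the cell cycle, from the helicase that opens replication origins to the motors that pull chromosomes apart. The rule names genes by function and uses no measured value, but it was set with earlier results of these data known. Of the 48, 47 had a transcript cluster with 1 gene symbol on the array, among 19938 genes measured in all, and *Ccnb1* was not analysed here. The 47 fall into 10 genes of replication licensing and the fork, 4 of nucleotide synthesis, 9 regulators of G1 and of entry into S phase, 6 of the G2/M engine, 8 mitotic kinases and checkpoint genes, 8 genes of spindle, kinetochore and cytokinesis, and 2 chromosome markers, *Mki67* and *Top2a*.

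The cells were MLO-Y4, a mouse osteocyte-like line that the labels trace to long bone of 14 days of age. The line is known as an immortalised clone from a mouse whose SV40 large T antigen was driven by the osteocalcin promoter, and large T antigen is known to bind the retinoblastoma proteins, so these cells divide in culture although osteocytes in bone do not. All 4 groups were grown for 48 h at the same temperature and CO2. The μ-g and 2-g groups were held at 12 T and the 1-g group at 16 T in the bore of 1 superconducting magnet (LG-HMF in the labels, a strong field that changes steeply along the bore), on plates that shared a holder, and the control group was held in normal gravity outside the magnet. Magnetic field, place in the bore and apparent gravity therefore cannot be told apart in a comparison with control. Each group had 3 arrays, called biological replicates 1 to 3 by the labels. No source used here names separate cultures, so the p-values speak only for the spread between these samples, which may be technical.

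As background, a dividing cell loads the MCM helicase in G1, makes deoxynucleotides and copies its DNA in S phase, switches on cyclin B with CDK1 in G2, and then builds a spindle that a checkpoint holds until every chromosome is attached. Genes of the S phase steps are known to be switched on by E2F factors, often through E2F motifs, and genes of the mitotic steps by the MuvB complex with B-MYB and FOXM1, often through a cell cycle homology region (CHR) and through CCAAT boxes. These messages are used as markers of how many cells of a culture are cycling. In RNA of a whole culture, fewer cycling cells and less RNA per cycling cell cannot be told apart.

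The values are log2 levels, and the array medians over all genes ran from 7.04 to 7.12. Arrays correlated at 0.997 to 0.998 within groups and at 0.994 to 0.999 between groups, over genes that are not independent replicates. Of the markers that define the cell type, the early osteocyte marker *Pdpn* had group means of 12.13 to 12.29 and the gap junction gene *Gja1* of 12.04 to 12.28. The mature osteocyte markers *Dmp1* (5.58 to 5.67), *Phex* (5.40 to 5.46) and *Mepe* (5.07 to 5.14) were below the array medians, and *Sost* was at 7.28 to 7.35. The osteoblast markers *Alpl* (10.72 to 11.05) and *Col1a1* (9.85 to 10.26) and *Cd44* (10.67 to 10.72) were above them. *Sp7* (6.14 to 6.19) and *Fgf23* (6.78 to 6.96) were below. Of 7 macrophage markers, *Ptprc* (5.65 to 5.70), *Adgre1* (5.42 to 5.52) and *Itgam* (5.83 to 5.91) were below the array medians, while *Csf1r* (7.12 to 7.38) and *Lyz2* (7.28 to 7.48) were near them and *Cd14* (8.98 to 9.14) and *Cd68* (9.24 to 9.89) above. All 4 endothelial markers, *Pecam1* among them (6.07 to 6.21), were below. Of the adipocyte markers *Adipoq* was at 5.62 to 5.70 and *Fabp4* at 10.54 to 10.90. *Cd68* was lower at 2-g than at μ-g and 1-g at adjusted p. Of the 11 measured osteocyte and osteoblast markers, 1 was higher at 2-g than in control and than at 1-g at adjusted p, where 3.11% and 2.26% of all genes passed. *Col1a1* had the largest log2 fold change of that list there (0.41 and 0.38). The part of other cell types in the values that follow was not tested. The mean log2 levels of the 47 genes ran from 8.67 for *Cdc25c* to 13.62 for *Cdk4*. Their median spread within groups was 0.0837 on the log2 scale, against 0.0854 over all genes.

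Promoters from RefSeq (GRCm38.p6) were at hand for 36 of the 47 genes, each with 250 bases before and 50 after the start site. They are shown because the members share these letters although the rule that chose them did not use sequence. CHR letters (TTTGAA on either strand, or the variant spelled TTCGAA) stood in the promoters of 17 of the 36 genes (47.2%), against 19.2% of 32851 promoters of the same length. CCAAT on either strand stood in 27 (75%, against 37.4%), with at least 2 CCAAT boxes in 16 (44.4%, against 11.7%). E2F letters on either strand stood in 11 (30.6%, against 7.70%). The E2F letters searched were TTCCCGC for the first form, TTGGCGC for the next and TTTGGCG for the last, and the last 2 overlap by 6 letters where they meet in one run. Genes with 2 promoters were counted once, with a match in either of them enough, while the shares of all promoters count each promoter by itself. The units therefore differ, and no test was made of these shares.

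A split by role was visible in the CHR letters and only in part in the E2F letters. Counted by gene, CHR letters were in all 3 of the G2/M engine, in 6 of 7 of the mitotic kinases and checkpoint, in 4 of 6 of the spindle group and in both chromosome markers. They were in 2 of 8 of the replication group and in none of the 4 nucleotide synthesis and 6 G1 genes. E2F letters were in 6 of 8 replication genes and in none of the 7 checkpoint and 6 spindle genes. They were also in 1 of 4 nucleotide synthesis, 2 of 6 G1 and 1 of 3 G2/M engine genes and in 1 of the 2 chromosome markers. The 5 windows below hold the 120 bases before the start site, 5′ to 3′ on the strand of the gene, for members whose levels are described further down. Capitals mark CHR, CCAAT and E2F letters on either strand, and a match is a description and not a binding site.
*Cdk1*, chr10:69352913-69353032, minus strand: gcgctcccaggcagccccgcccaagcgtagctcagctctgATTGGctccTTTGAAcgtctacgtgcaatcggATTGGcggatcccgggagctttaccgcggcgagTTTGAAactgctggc
*Top2a*, chr11:99024190-99024309, minus strand: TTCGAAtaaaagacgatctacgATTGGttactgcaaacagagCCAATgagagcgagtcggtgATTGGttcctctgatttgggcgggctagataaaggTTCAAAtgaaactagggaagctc
*Kif11*, chr19:37376262-37376381, plus strand: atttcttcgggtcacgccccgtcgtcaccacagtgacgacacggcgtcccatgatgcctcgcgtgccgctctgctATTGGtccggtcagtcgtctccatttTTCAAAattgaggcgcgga
*Mki67*, chr7:135716380-135716499, minus strand: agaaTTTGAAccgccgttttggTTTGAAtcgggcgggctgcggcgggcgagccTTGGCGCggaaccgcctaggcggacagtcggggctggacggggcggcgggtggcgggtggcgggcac
*Mcm6*, chr1:128359706-128359825, minus strand: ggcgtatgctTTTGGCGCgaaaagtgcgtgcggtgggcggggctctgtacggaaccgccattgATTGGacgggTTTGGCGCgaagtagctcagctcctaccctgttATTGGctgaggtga
The window of *Cdk1*, the kinase of mitotic entry, held 2 CHR and 2 CCAAT matches. That of *Top2a*, which untangles DNA, held 2 CHR and 3 CCAAT matches, and that of *Kif11*, a spindle motor, 1 of each. The window of *Mki67* held 2 CHR matches and 1 E2F match. The window of *Mcm6*, a subunit of the replicative helicase, held no CHR match but 2 CCAAT boxes and 2 runs of E2F letters.

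None of the 47 genes passed at adjusted p under 0.05, by limma with Benjamini-Hochberg adjustment over all 19938 genes, in any of the 6 comparisons of groups or in the F test of the 4 groups. Of all genes, 0.823% passed in set 1 (μ-g v.s. control), 3.11% in set 2 (2-g v.s. control), 0.321% in set 3 (1-g v.s. control), 2.88% in set 4 (μ-g against 2-g), 0% in μ-g v.s. 1-g, 2.26% in 2-g v.s. 1-g and 3.15% in the F test. With so few genes called in all, a count of 0 of 47 is near the background in every comparison. An ordinary t-test of 2 groups at a time, after Benjamini-Hochberg adjustment, called 0 of the 47. Over all 19938 genes it called 0, 0, 1 and 15 in sets 1 to 4, 0 in μ-g v.s. 1-g and 8 in 2-g v.s. 1-g. With so few calls its count of 0 says nothing about the 47 genes.

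What the arrays do give is an interval for each difference, drawn from the spread between these samples, which may be technical. The intervals come from the fit without the replicate number and are not adjusted for the number of genes or comparisons. None of the 47 genes differed by more than 1.5-fold in any comparison, where 0.206% of all genes did in set 1, 0.471% in set 2, 0.14% in set 3, 0.717% in set 4, 0% in μ-g v.s. 1-g and 0.667% in 2-g v.s. 1-g. The 95% interval of the log2 fold change lay within 1.5-fold either way for 45 of 47 genes in set 1, for 46 in set 2 and in set 3, and for all 47 in the 3 comparisons between magnet groups. The same held for 98.1%, 97.2% and 98.6% of all genes in sets 1 to 3. It held for 97.0% in set 4, 99.7% in μ-g v.s. 1-g and 97.3% in 2-g v.s. 1-g, so the narrow intervals are not particular to these genes. The genes whose intervals ran past 1.5-fold were *Cenpe* and *Cenpf*, both kinetochore genes. The median log2 fold change over the 47 genes was 0.04 in set 1, 0.04 in set 2, 0.05 in set 3, 0.02 in set 4, −0.02 in μ-g v.s. 1-g and −0.03 in 2-g v.s. 1-g. Over all genes it was 0.02, −0.00, 0.02, 0.03, 0.01 and −0.02 in the same order. Sets 1, 2 and 3 share the 3 control arrays, so their values are given side by side and are not independent of each other.

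**Figure D1:**
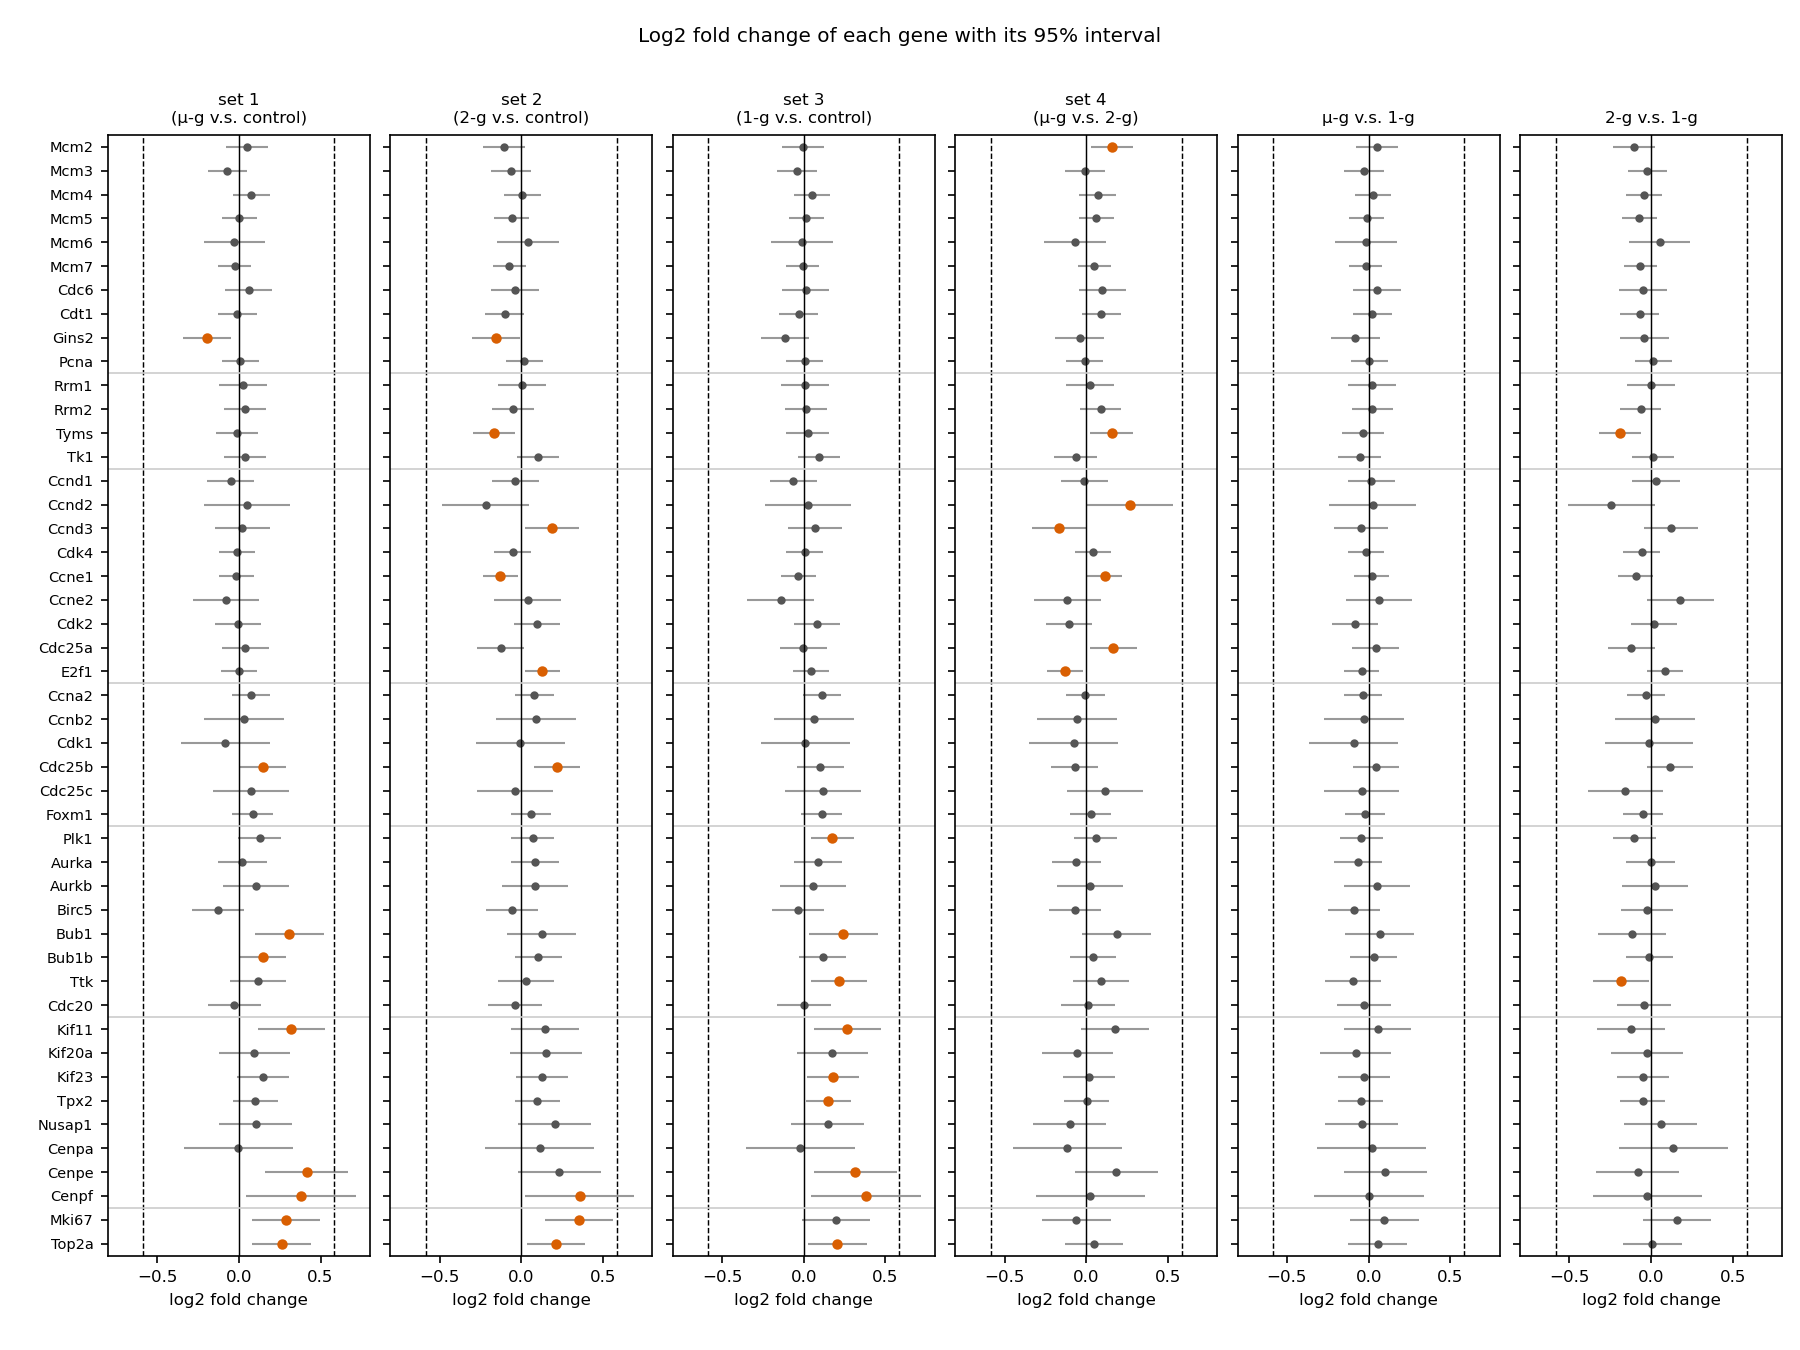
Log2 fold change (x axis, log2 units) of each of the 47 genes (rows, by role) in the 6 comparisons (panels), with bars for the 95% interval and dashed lines at 1.5-fold. Orange points have an unadjusted P under 0.05. All points lie inside the dashed lines, and the largest, *Cenpe* in set 1, is at 0.42.

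At an unadjusted P under 0.05, which is how the limit in the methods is read here, 8 of the 47 genes were higher and 1 lower in set 1, where 9.94% of all genes were higher and 4.1% lower. In set 2, 6 were higher and 3 lower (8.65% and 8.1% of all genes), and in set 3, 9 were higher and 0 lower (7.79% and 3.03%). In set 4, 5 were higher and 2 lower (11.4% and 5.75%). In μ-g v.s. 1-g no gene passed (1.37% and 0.938%), and in 2-g v.s. 1-g 0 were higher and 2 lower (5.3% and 9.99%). In the F test 7 of the 47 genes passed at P under 0.05, against 17.9% of all genes. Higher genes made up a larger share of the 47 than of all genes in sets 1, 2 and 3, and these counts moved with single arrays. Without control replicate 3, 6 were higher and 0 lower in set 1, 3 and 2 in set 2, and 1 and 0 in set 3, where 7.86%, 6.80% and 6.36% of all genes were higher. The share of the 47 was then below that of all genes in sets 2 and 3. Without 1-g replicate 2, 0 were higher and 2 lower in set 3, where 5.52% of all genes were higher.

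The 10 genes of replication licensing and the fork had log2 fold changes of −0.20 to 0.16 over the 6 comparisons. Their median was −0.00 in set 1, −0.06 in set 2, −0.00 in set 3, 0.05 in set 4, −0.01 in μ-g v.s. 1-g and −0.05 in 2-g v.s. 1-g. In set 2, 3 of the 10 were above 0, and in 2-g v.s. 1-g 2 were, against 48.7% and 39.5% of all genes. The largest log2 fold change in size was that of *Gins2*, a subunit of the GINS complex that joins the helicase at the fork. Its log2 level was 10.70, 10.71 and 10.79 on the control arrays, 10.46, 10.66 and 10.49 at μ-g, 10.56, 10.59 and 10.59 at 2-g, and 10.53, 10.76 and 10.57 at 1-g. All μ-g and 2-g arrays were below all control arrays, and 1 of the 1-g arrays lay among the controls. In set 1 the log2 fold change was −0.20 ± 0.07 (SE, adjusted p = 0.210) and in set 2 −0.16 ± 0.07 (adjusted p = 0.270). The sliding clamp *Pcna*, a common proliferation marker, had log2 fold changes of 0.01 in set 1, 0.02 in set 2 and 0.01 in set 3. The helicase subunit *Mcm2* was at 12.58, 12.54 and 12.46 at μ-g and at 12.45, 12.32 and 12.34 at 2-g, which do not overlap, with a log2 fold change of 0.16 ± 0.06 in set 4 (adjusted p = 0.189).

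Of the nucleotide synthesis genes, *Tyms*, thymidylate synthase, was lowest in the 2-g group. Its log2 level was 11.65, 11.61 and 11.46 at 2-g, 11.79, 11.82 and 11.69 at 1-g, 11.75, 11.77 and 11.67 at μ-g, and 11.77, 11.76 and 11.70 on the control arrays. All 2-g arrays were below all arrays of the other groups. *Tyms* had a log2 fold change of −0.17 ± 0.06 in set 2, 0.15 ± 0.06 in set 4 and −0.19 ± 0.06 in 2-g v.s. 1-g, with adjusted p = 0.167, 0.201 and 0.136. With the replicate number as a block, a term that removes what arrays of the same number share, these adjusted p-values were 0.0340, 0.0449 and 0.0221. The other 3 genes of this class, both subunits of ribonucleotide reductase (*Rrm1*, *Rrm2*) and thymidine kinase (*Tk1*), had log2 fold changes of −0.06 to 0.10 over sets 1 to 4, and no interval among them reached 1.5-fold. A second cluster of *Tk1*, with a mean log2 level of 10.56, was at −0.17 in set 1, where the first was at 0.04. It was at −0.20 in set 4 and −0.17 in μ-g v.s. 1-g, where the first was at −0.06 in both. Its unadjusted P by limma was 0.0303, 0.0126 and 0.0284 in these 3, and in the other comparisons it was at 0.00 to 0.03.

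Among the G1 genes the 3 D-type cyclins, partners of CDK4, did not go one way. *Ccnd2* was at 11.09, 10.67 and 10.82 at 2-g, 11.27, 10.99 and 11.11 at μ-g, 11.33, 11.06 and 10.92 at 1-g, and 11.19, 10.97 and 11.07 on the control arrays. The groups overlap, but within each replicate number the 2-g array was the lowest of the 4. In set 4 the log2 fold change was 0.27 ± 0.12 (adjusted p = 0.286) and −0.24 ± 0.12 in 2-g v.s. 1-g (adjusted p = 0.379), and with the block the adjusted p-values were 0.0256 and 0.0422. *Ccnd3* was higher at 2-g, at 10.42, 10.43 and 10.41 against 10.09, 10.31 and 10.29 in control, with a log2 fold change of 0.19 ± 0.08 in set 2 (adjusted p = 0.223), and *Ccnd1* was at −0.04 there. The transcription factor *E2f1* was at 11.23, 11.22 and 11.25 at 2-g against 11.15, 11.07 and 11.10 in control, and these groups do not overlap. Its log2 fold change was 0.13 ± 0.05 in set 2 (adjusted p = 0.200). *Ccne1*, a cyclin of S phase entry, was lower at 2-g than in control by a log2 fold change of −0.13 ± 0.05 (adjusted p = 0.194).

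Of the G2/M engine, *Cdc25b*, a phosphatase that activates CDK1, had the largest difference. Its log2 level was 10.03, 9.98 and 10.16 at 2-g and 9.74, 9.88 and 9.90 on the control arrays, which do not overlap. At μ-g it was 9.87, 10.06 and 10.02 and at 1-g 9.93, 9.93 and 9.97. In set 2 the log2 fold change was 0.22 ± 0.07 (adjusted p = 0.0995, and 0.0288 with the block). *Cdk1*, *Ccnb2*, a B-type cyclin, and *Ccna2*, cyclin A2, had log2 fold changes between −0.08 and 0.11 in sets 1 to 3. The transcription factor *Foxm1*, known to act on many of these mitotic genes, was at 0.09, 0.06 and 0.11 in sets 1, 2 and 3, and passed in none of them at P under 0.05.

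The genes of mitosis proper were mostly a little above control. Over the 8 genes of spindle, kinetochore and cytokinesis the median log2 fold change was 0.12 in set 1, 0.15 in set 2 and 0.18 in set 3, with 7, 8 and 7 of 8 above 0 (61.0%, 48.7% and 58.4% of all genes), and over the 8 mitotic kinases and checkpoint genes it was 0.11, 0.08 and 0.10. The medians of both classes stayed above 0 in these sets after centring each array on its median and after quantile normalization. None of the 16 passed at adjusted p. Without control replicate 3 the medians were 0.07, 0.10 and 0.12 for the spindle class and 0.08, 0.06 and 0.07 for the kinases and checkpoint.

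*Cenpe*, a kinetochore motor that brings chromosomes to the plate, had the largest log2 fold change of the 47. Its log2 level was 9.63, 9.50 and 9.16 on the control arrays, 9.88, 9.68 and 9.98 at μ-g, 9.72, 9.86 and 9.66 at 1-g, and 9.82, 9.58 and 9.60 at 2-g. All μ-g and 1-g arrays were above all control arrays, and control replicate 3 was the lowest of the 12. Against control the log2 fold change was 0.42 in set 1 (95% interval 0.16 to 0.67, adjusted p = 0.125) and 0.32 in set 3 (adjusted p = 0.341). Without control replicate 3 these were 0.28 and 0.18. *Cenpf*, another kinetochore gene, was at 9.37, 9.05 and 8.70 on the control arrays and between 9.23 and 9.60 on the 9 magnet arrays. Control replicate 1 lay among the magnet arrays and control replicate 3 far below them. *Cenpf* had a log2 fold change of 0.38 ± 0.15 in set 1, 0.36 ± 0.15 in set 2 and 0.38 ± 0.15 in set 3, with adjusted p of 0.281, 0.262 and 0.391, and without control replicate 3 it was 0.21, 0.19 and 0.21.

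*Kif11*, the motor that pushes spindle poles apart, was at 10.96, 10.66 and 10.71 on the control arrays and at 11.04, 10.97 and 11.28 at μ-g, which do not overlap. Its log2 fold change was 0.32 in set 1 (95% interval 0.11 to 0.53, adjusted p = 0.144) and stayed at 0.29 without control replicate 3. *Bub1*, a kinase of the spindle checkpoint, was at 10.49, 10.17 and 10.22 in control, 10.59, 10.48 and 10.74 at μ-g, 10.55, 10.53 and 10.53 at 1-g, and 10.55, 10.25 and 10.46 at 2-g. Control replicate 1 overlapped the μ-g arrays, and all 1-g arrays were above control. *Bub1* had a log2 fold change of 0.31 in set 1 (95% interval 0.10 to 0.52, adjusted p = 0.166) and 0.24 in set 3 (adjusted p = 0.385).

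The 2 chromosome markers were above control in all 3 sets. *Mki67*, which codes for the Ki-67 antigen used to stain cycling cells, was at 11.00, 10.93 and 10.58 on the control arrays, 11.22, 11.19 and 11.16 at 2-g, 11.07, 11.05 and 11.26 at μ-g, and 10.99, 11.11 and 11.00 at 1-g. All 2-g and μ-g arrays were above all control arrays, and the 1-g arrays overlapped with control. For *Mki67* the log2 fold change was 0.35 in set 2 (95% interval 0.14 to 0.56, adjusted p = 0.0734) and 0.29 in set 1 (adjusted p = 0.188). Set 2 passed with the block (adjusted p = 0.0461) and when only genes above the median level were tested (adjusted p = 0.0413), and without control replicate 3 its log2 fold change was 0.22 (adjusted p = 0.179). *Top2a* was at 11.30, 11.37 and 11.23 in control, 11.48, 11.50 and 11.71 at μ-g, 11.47, 11.49 and 11.59 at 2-g and 11.33, 11.60 and 11.58 at 1-g. The μ-g and 2-g arrays did not overlap with control, and the log2 fold change was 0.26 ± 0.08 in set 1 and 0.21 ± 0.08 in set 2 (adjusted p = 0.168 and 0.201). A second cluster of *Top2a*, with a mean log2 level of 4.94, had log2 fold changes of the opposite sign, −0.15 in set 1, −0.05 in set 2 and −0.21 in set 3.

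**Figure D2:**
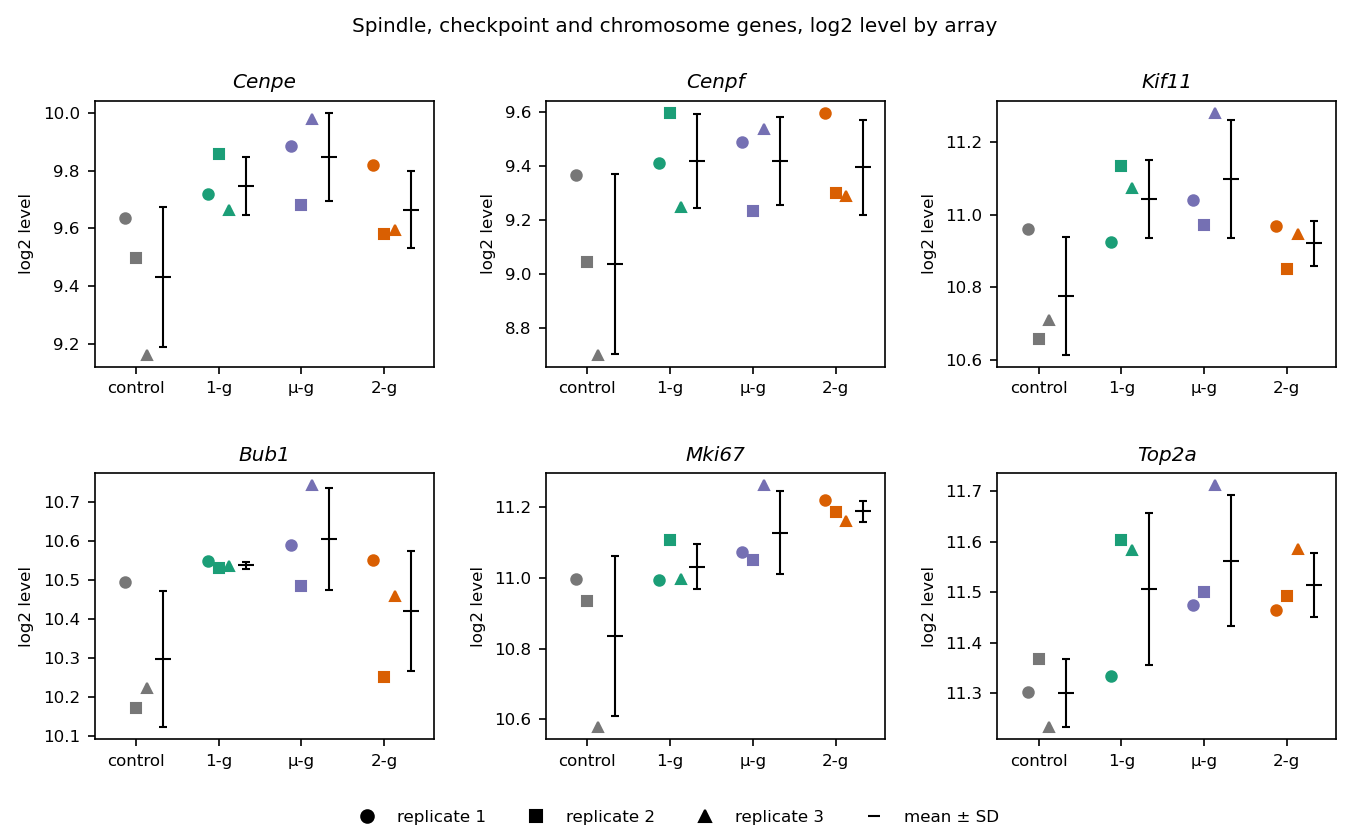
Log2 level (y axis) of 6 mitotic genes on each of the 12 arrays by group (x axis), with shapes for the replicate number and bars for the mean ± SD of 3 arrays. Control replicate 3 is the lowest array for *Cenpe* (9.16), *Cenpf* (8.70), *Mki67* (10.58) and *Top2a* (11.23).

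Between the magnet groups the 47 genes, each on its cluster with the highest mean, lay closest in μ-g v.s. 1-g. There log2 fold changes ran from −0.10 to 0.10 and the widest intervals from −0.36 to 0.35. In 2-g v.s. 1-g, *Tyms* and the checkpoint kinase *Ttk* were lower at P under 0.05. *Ttk* was at 8.96, 8.96 and 9.08 at 2-g and at 9.08, 9.24 and 9.24 at 1-g, with a log2 fold change of −0.19 ± 0.08 (adjusted p = 0.284).

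The arrays themselves differed in the level of these genes. Control replicate 3 was the lowest of the 12 arrays for 14 of the 47 genes, among them 5 of the 8 spindle genes, and for 2287 of all 19938 genes. Its mean deviation from the genes' own means was −0.10 over the 47 genes and −0.31 over the spindle genes. 1-g replicate 2 was the highest array for 16 of the 47 genes and lay above the genes' own means for 43 of them, with a mean deviation of 0.11. Over all 19938 genes it was the highest for 2798 and above the genes' own means for 13064. Over the 10 replication genes control replicate 3 was the highest of the 12 arrays for *Gins2*, *Cdt1*, a loader of the helicase, and *Mcm5*, and the lowest for *Pcna* (12.92) and *Mcm4* (11.37), with a mean deviation of 0.02. What part this array's standing has in the values against control, beyond the values without it, was not tested.

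**Figure D3:**
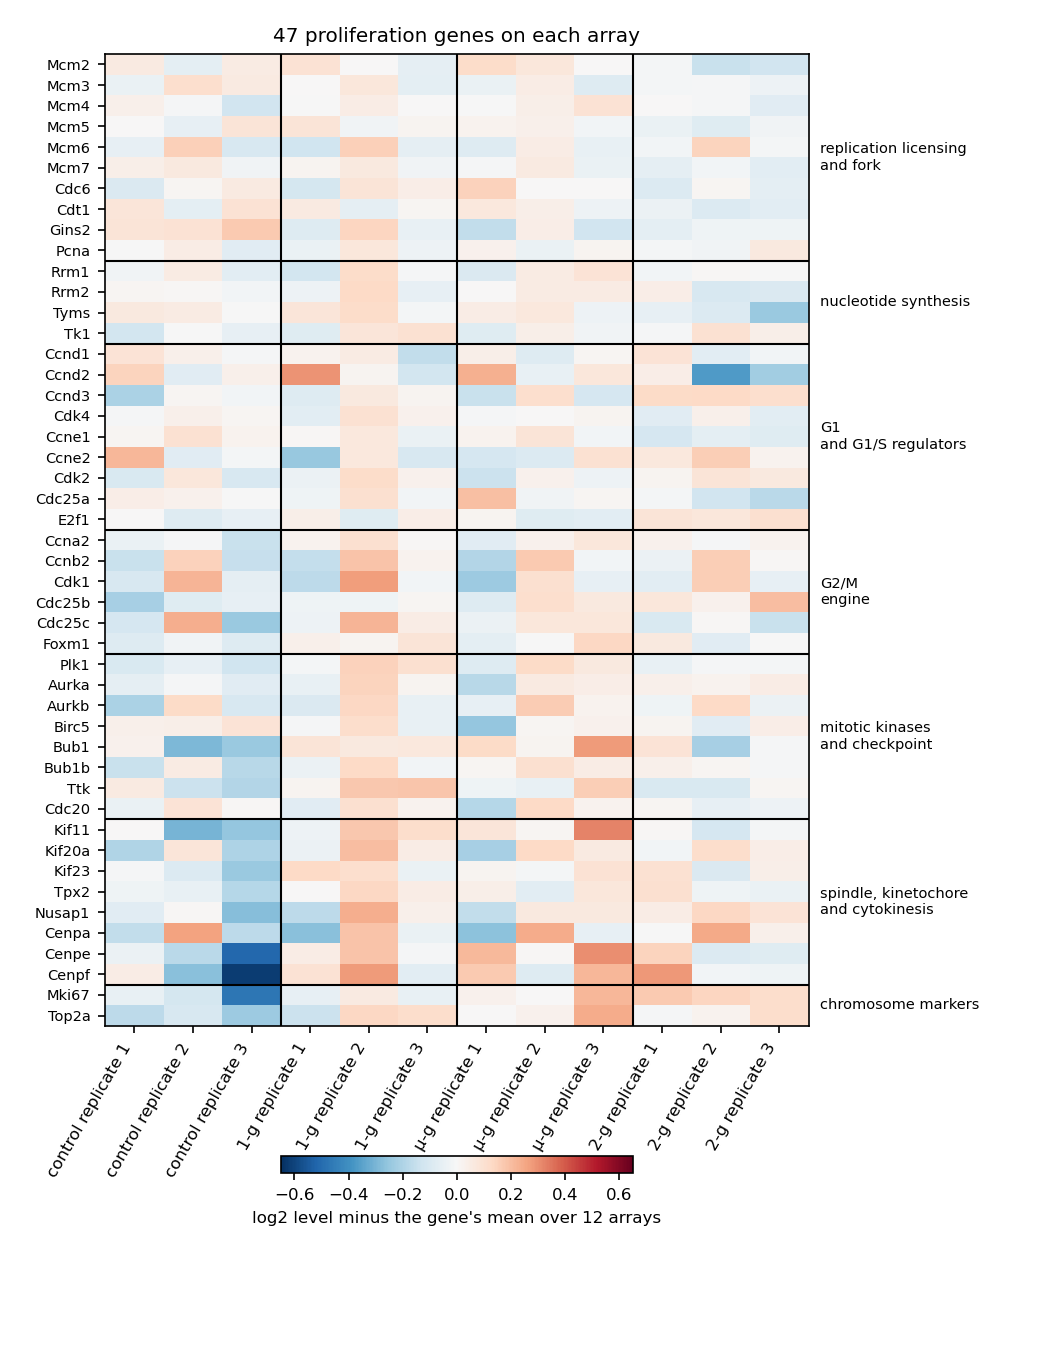
Log2 level of each of the 47 genes (rows, by role) minus its mean over the 12 arrays (columns, by group), in colour from blue (lower) to red (higher). Control replicate 3 is blue across the spindle genes, where its mean deviation is −0.31, and 1-g replicate 2 is red for 43 of the 47 genes.

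With the replicate number as a block, 3 of the 47 genes passed at adjusted p in set 2 (*Tyms* lower, *Cdc25b* and *Mki67* higher), 2 in set 4 (*Tyms* and *Ccnd2*, both higher at μ-g) and 2 in 2-g v.s. 1-g (*Tyms* and *Ccnd2*, both lower at 2-g). The same fit called 9.38% of all genes in set 2, 1.77% in set 3, 9.18% in set 4, 0% in μ-g v.s. 1-g and 7.57% in 2-g v.s. 1-g. The 3, 2 and 2 genes called are a smaller share of 47 than these backgrounds. None of the 47 genes passed with the block in set 3 or in μ-g v.s. 1-g. When control replicate 3 was left out of the blocked fit, an alternative chosen after seeing the data, none passed in sets 1 to 3, and *Mcm2* joined *Tyms* and *Ccnd2* in set 4.

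The replicate number went with the level of some of the 47 genes, as it did over the array as a whole. In an F test of the 3 numbers with the group in the model, chosen after seeing the data, 7 of the 47 genes (14.9%) passed at adjusted p under 0.05, against 10.1% of all genes, a share near the background. They were 5 genes of G2/M and mitosis, the helicase gene *Mcm6* and the G1 cyclin *Ccnd2*. *Cenpa*, the histone that marks centromeres, was at 10.13, 10.55 and 10.12 on control replicates 1, 2 and 3, at 10.02, 10.53 and 10.23 at μ-g, at 10.01, 10.47 and 10.24 at 1-g and at 10.28, 10.53 and 10.32 at 2-g. The array numbered 2 was the highest of its group in all 4 groups. The difference of number 2 from number 1 was 0.41 ± 0.05 on the log2 scale (adjusted p = 0.00151).

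*Cdk1* was also highest on number 2 in each group, with 11.99, 12.31 and 12.04 in control, 11.86, 12.19 and 12.04 at μ-g, 11.92, 12.37 and 12.08 at 1-g, and 12.03, 12.25 and 12.04 at 2-g. Number 2 was above number 1 by 0.33 ± 0.04 (adjusted p = 0.00154). The same difference was 0.30 for *Ccnb2*, 0.25 for the cytokinesis motor *Kif20a*, 0.23 for *Aurkb*, a kinase of chromosome attachment, and 0.20 for *Mcm6*, each higher on number 2 in 4 of 4 groups. *Ccnd2* went the other way by −0.30, lower on number 2 in 4 of 4 groups. For *Cenpa* this difference was larger than its largest log2 fold change between groups in size, 0.13 in 2-g v.s. 1-g. Leaving out any 1 array left 5 to 7 of the 47 genes called, and centring the arrays on their medians left 5, with *Mcm6* (adjusted p = 0.0569) and *Kif20a* (adjusted p = 0.0532) no longer past the limit. What a number marks (a day, a batch or a passage) is not given in the labels or the methods.

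**Figure D4:**
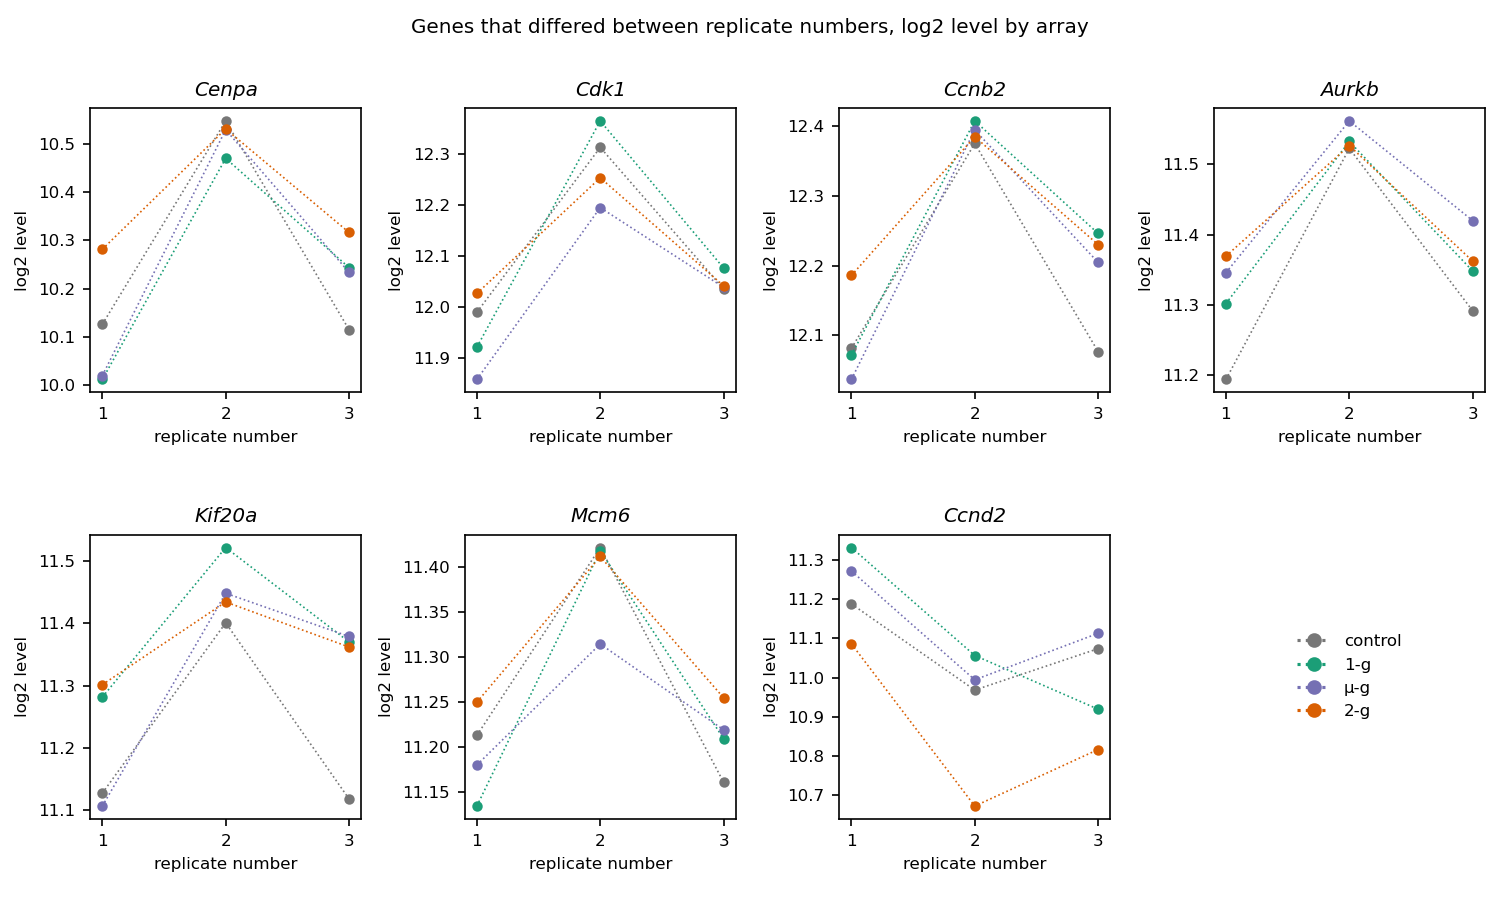
Log2 level (y axis) of the 7 genes that differed by replicate number (x axis), 1 point per array, with colours for the groups and dotted lines joining arrays of a group, which carry no order in time. In 6 panels the array numbered 2 is the highest of each group, and in the panel of *Ccnd2* it is below number 1 in each group.

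Cell cycle genes outside the 47 were counted from the same fit, from lists chosen with earlier results of these data known. Of 51 other mitosis genes 0 passed at adjusted p in any comparison. With the block, 2 rose in set 2, *Kif18b* (0.15, adjusted p = 0.0414) and *Hmmr* (0.28, adjusted p = 0.0399), 2 in set 3, *Kif18b* (0.22, adjusted p = 0.0273) and *Gtse1* (0.26, adjusted p = 0.0444), and 1 in set 4, *Kif14* (0.27, adjusted p = 0.0387). The blocked fit called 9.38%, 1.77% and 9.18% of all genes in these sets, and the genes are named after their values were seen. At P under 0.05, 18 were higher in set 1, 10 in set 2 and 15 in set 3, where 9.94%, 8.65% and 7.79% of all genes were, with none lower. In set 4, 5 were higher, and in 2-g v.s. 1-g 5 were lower, where 11.4% and 9.99% of all genes were. Without control replicate 3 the counts of sets 1 to 3 were 14, 4 and 10, against 7.86%, 6.80% and 6.36% of all genes. Without 1-g replicate 2 that of set 3 was 9, against 5.52%. Their median log2 fold change was 0.09, 0.07 and 0.12 in sets 1, 2 and 3. Of 40 other DNA replication genes, 1 fell in set 2, 1 rose in set 4 and 1 fell in 2-g v.s. 1-g, near the 3.11%, 2.88% and 2.26% of all genes called there. At P under 0.05, 0 of these 40 were higher and 7 lower in set 2 (8.65% and 8.1% of all genes). In set 4, 8 were higher and 0 lower (11.4% and 5.75%), and in 2-g v.s. 1-g 1 was higher and 7 lower (5.3% and 9.99%). In set 1, 4 were higher and 2 lower (9.94% and 4.1%), and in set 3, 1 and 1 (7.79% and 3.03%). Without control replicate 3, 5 were lower in set 2, and without 1-g replicate 2, 4 were lower in 2-g v.s. 1-g. With the block 5 fell in set 2, 4 rose in set 4 and 4 fell in 2-g v.s. 1-g, against 9.38%, 9.18% and 7.57% of all genes called in either direction.

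The 2 genes called are given as values and not as a result about that list. *Mcm10*, which helps to start the fork, was lowest at 2-g, at 9.43, 9.29 and 9.41, against 9.65, 9.67 and 9.81 at μ-g, 9.67, 9.66 and 9.63 at 1-g and 9.57, 9.47 and 9.58 in control. All 2-g arrays were below all other arrays. *Mcm10* had a log2 fold change of 0.33 ± 0.06 in set 4 (adjusted p = 0.0107) and −0.27 ± 0.06 in 2-g v.s. 1-g (adjusted p = 0.0312). The second call was lost when any 1 of the 6 arrays of these groups was left out, with adjusted p of 0.0506 to 0.115. *Orc2*, a subunit of the origin recognition complex, fell in set 2, with 9.58, 9.38 and 9.32 at 2-g against 9.95, 9.70 and 9.89 in control and a log2 fold change of −0.42 ± 0.09 (adjusted p = 0.0322). Without 2-g replicate 3 the adjusted p was 0.141, without control replicate 3 it was 0.122, without control replicate 1 0.114 and without 2-g replicate 2 0.0969. With the block *Orc2* also passed in set 4 (adjusted p = 0.00933) and in 2-g v.s. 1-g (adjusted p = 0.0232).

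Of 20 E2F, DREAM and MYBL2 regulators, 1 rose in set 1, where 0.823% of all genes passed. *E2f8*, a repressor of the E2F family, was at 9.83, 9.67 and 9.86 at μ-g and at 9.57, 9.50 and 9.50 in control, with a log2 fold change of 0.27 ± 0.05 (adjusted p = 0.0493). The call was lost when any 1 of the 12 arrays but μ-g replicate 2 was left out, with adjusted p of 0.0642 to 0.209, and it was also lost after quantile normalization (adjusted p = 0.0582). With the block *E2f8* also passed in set 2 (0.18, adjusted p = 0.0478) and in set 3 (0.28, adjusted p = 0.0257). At P under 0.05, 5 of the 20 regulators were higher and 0 lower in set 4 (11.4% and 5.75% of all genes). In 2-g v.s. 1-g 0 were higher and 6 lower (5.3% and 9.99%), and without 1-g replicate 2, 1 was lower there. In set 1, 3 were higher (9.94% of all genes), in set 2, 2 (8.65%) and in set 3, 3 (7.79%), with none lower.

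The largest log2 fold changes among the cell cycle genes counted here were in the list of cell cycle inhibitors. This list too was chosen with earlier results known. Of its 16 genes 15 were measured, and *Cdkn1a*, whose cluster carries 2 symbols, was not analysed. At adjusted p, 2 rose in set 1, 5 in set 2 and 2 in set 3, 2 fell in set 4, and 2 rose in 2-g v.s. 1-g, where 0.823%, 3.11%, 0.321%, 2.88% and 2.26% of all genes passed in either direction. With the block 7 rose and 1 fell in set 2, 4 fell in set 4 and 3 rose in 2-g v.s. 1-g, against 9.38%, 9.18% and 7.57%. *Ccng2*, cyclin G2, which is known to rise in cells that leave the cycle, was at 9.72, 10.10 and 9.76 at 2-g. It was at 8.49, 8.68 and 8.58 at μ-g, 8.52, 8.87 and 8.65 at 1-g, and 8.49, 9.37 and 8.96 in control. All 2-g arrays were above all other arrays, and the control arrays were the most spread. The log2 fold change was 0.92 ± 0.18 in set 2 (adjusted p = 0.0199), −1.28 ± 0.18 in set 4 (adjusted p = 0.00314) and 1.18 ± 0.18 in 2-g v.s. 1-g (adjusted p = 0.00571). Leaving out control replicate 1, control replicate 3, 2-g replicate 2 or 2-g replicate 3 took the adjusted p of set 2 to 0.0532, 0.0723, 0.0698 and 0.0663, and the other 2 comparisons passed without any 1 array.

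*Cdkn2d*, which codes for the CDK4 inhibitor p19, was at 8.71, 8.73 and 8.78 at 2-g, 8.31, 8.41 and 8.48 at μ-g, 8.38, 8.50 and 8.47 at 1-g, and 8.38, 8.44 and 8.28 in control. All 2-g arrays were again above all others. The log2 fold change was 0.37 ± 0.06 in set 2 (adjusted p = 0.00788), and that call held without any 1 array. It was −0.34 ± 0.06 in set 4 (adjusted p = 0.0101) and 0.29 ± 0.06 in 2-g v.s. 1-g (adjusted p = 0.0259). Set 4 was lost without μ-g replicate 1 (adjusted p = 0.0517) or 2-g replicate 3 (adjusted p = 0.0522), and 2-g v.s. 1-g without any 1 of its 6 arrays (adjusted p = 0.0514 to 0.110).

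*Cdkn1b*, which codes for the inhibitor p27 and is named here after its values were seen as the fifth gene called in set 2, was at 10.95, 11.06 and 10.99 at 2-g against 10.63, 10.74 and 10.70 in control. These groups do not overlap, and the log2 fold change was 0.31 ± 0.06 (adjusted p = 0.0239). The call was lost without control replicate 1 or 3 or 2-g replicate 2 or 3, with adjusted p of 0.0799 to 0.0897, and when the clusters of the gene were averaged (adjusted p = 0.0896). With the block it also passed in set 4 (−0.25, adjusted p = 0.0148) and in 2-g v.s. 1-g (0.25, adjusted p = 0.0167). *Ccng1* and *Sesn3*, both known targets in stress responses, rose in all 3 sets against control, by 0.51, 0.30 and 0.47 and by 0.61, 0.51 and 0.40 in sets 1, 2 and 3. *Gadd45a* of the same list went the other way, with a mean of 10.28 in control. Its means were 10.06 at μ-g, 9.86 at 2-g and 10.01 at 1-g, with an SD within groups of 0.27 to 0.41. No inhibitor was lower at P under 0.05 in these 3 sets in the fit without the block. Without control replicate 3, 2 inhibitors passed in set 2, and without 1-g replicate 2 none passed in set 3 and 1 in 2-g v.s. 1-g.

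**Figure D5:**
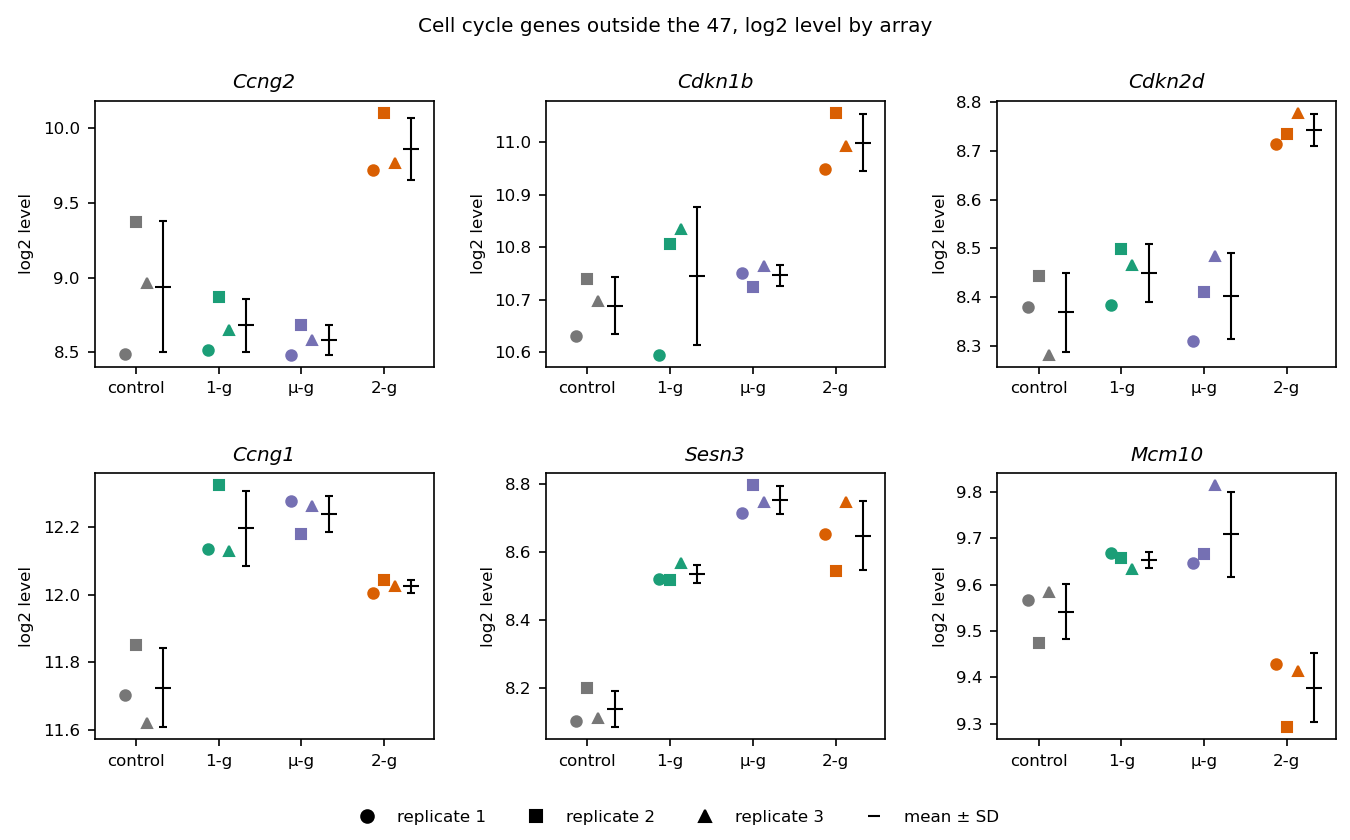
Log2 level (y axis) of 5 genes of the inhibitor list and of *Mcm10* on each of the 12 arrays by group (x axis), with shapes for the replicate number and bars for the mean ± SD of 3 arrays. The 2-g arrays stand above all others for *Ccng2*, *Cdkn1b* and *Cdkn2d* and below all others for *Mcm10*.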

How the data were processed

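Expression in MLO-Y4 cells was read from 12 Mouse Gene 1.0 ST arrays (Affymetrix), 3 in each group. The authors applied RMA, and the log2 values deposited cover 28856 transcript clusters. Clusters were named through the platform table, and for each of 19938 genes with a single-symbol cluster the cluster with the highest mean was taken. Group means were estimated over all clusters with limma 3.58.1 in R 4.3.3 (lmFit, eBayes), on 8 residual and 3.90 prior degrees of freedom, and p-values were adjusted after Benjamini and Hochberg over the 19938 genes. The procedure was tested on simulated data. With 3 arrays a side, an exact two-sided permutation p is at least 0.1.

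The 48 genes, their roles and the other lists were chosen with earlier results of these data known. The text names, in each role, the genes with the largest log2 fold change and the smallest F test p, and up to 4 called genes of each other list. *Cenpf*, *Kif11*, *Top2a* and further members given as examples were chosen after their values were seen.

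All groups carry replicate numbers 1 to 3. Deviations from the group means correlated at 0.342 on average between arrays of the same number and at −0.171 between other numbers. Such deviations cancel out within each group, so the second value largely follows from the first and adds no evidence of pairing. Every same-numbered pair was above 0.1 in all comparisons but set 1, where the lowest was 0.0179, so the block is given beside the other comparisons. The pairing comes from these values and not from the labels. Alternatives were the block, the 6 arrays of 2 groups alone, genes above the median level, centred or quantile-normalized arrays, an intensity trend with a robust prior, the mean of a gene's clusters, an ordinary t-test and leaving out each array.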

Additional observations from a re-analysis of the deposited data

How the results depend on the processing

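Of the 47 genes 0 were called in all 6 comparisons and in the F test. The count stayed 0 with the 6 arrays of 2 groups alone, after centring or quantile normalization and under a robust prior with a trend on intensity. It also stayed 0 with averaged clusters, under the methods' fold and P rule, and without any 1 array. Some of these fits called few genes in all, and a count of 0 there does not show stability. The 6 arrays of 2 groups alone called 0 of 19938 genes in set 1, set 3 and μ-g v.s. 1-g. Without 1-g replicate 1 or 2, 0 of all genes passed in set 3, and without μ-g replicate 3, 2 passed in set 1. With the replicate block the count of the 47 was 1 in set 1 (*Bub1*, adjusted p = 0.0452, where 938 of 19938 genes passed), 3 in set 2, 2 in set 4, 2 in 2-g v.s. 1-g and 2 in the F test (*Tyms* and *Ccnd2*, of 2324 genes called). In set 1 the lowest same-number correlation missed the limit set for pairing. Of the 51 other mitosis genes the blocked fit called 6 in set 1 and 7 in the F test, where 938 and 2324 of all 19938 genes passed. Their share was above that of all genes in set 1 and near it in the F test. Over genes above the median level the count of the 47 was 1 in set 2, of 906 genes called. At unadjusted P it was 9 in each of sets 1 to 3, 7 in set 4, 2 in 2-g v.s. 1-g and 7 in the F test, and by an ordinary t-test before adjustment 2, 6, 2, 3 and 2 in sets 1 to 4 and 2-g v.s. 1-g, of 1976, 2673, 1671, 2688 and 2407 of all 19938 genes. With the block and control replicate 3 left out, chosen after seeing the data, it was 3 in set 4 and 2 in 2-g v.s. 1-g, of 1796 and 1507 genes.

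The median log2 fold change over the 47 genes moved by more than the spread between arrays in sets 2 and 3 and in μ-g v.s. 1-g, and only when 1 array was left out. It ran from 0.0105 (without control replicate 3) to 0.0859 (without control replicate 2) in set 2, from 0.0343 (without 1-g replicate 2) to 0.109 (without control replicate 2) in set 3 and from −0.0247 (without 1-g replicate 1) to 0.0317 (without 1-g replicate 2) in μ-g v.s. 1-g. In set 1 it ran from 0.0238 (without control replicate 1) to 0.0706 (without μ-g replicate 1), in set 4 from −0.0159 (without μ-g replicate 3) to 0.0481 (without μ-g replicate 1) and in 2-g v.s. 1-g from −0.0560 (without 1-g replicate 1) to 0.0116 (without 1-g replicate 2), so its sign turned in these last 2 and in μ-g v.s. 1-g. The causes of these shifts were not tested. With 3 arrays per group, differences of the size found here, mostly under 0.2 on the log2 scale, are near the spread within groups, and the arrays cannot tell a change in the share of cycling cells from a change in RNA per cell. Only the authors' normalized values were used, so their background correction could not be varied.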
